A study of Mus musculus with 6 samples.

Results

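Calcineurin, protein phosphatase 1 (PP1) and conventional protein kinase C (PKC) are the phosphatases and kinases through which calcium entering a synapse changes the phosphorylation of its proteins. The 9 genes described here encode subunits of these enzymes and were taken by their names from a table of 21958 protein-coding genes. They are the calcineurin catalytic subunits Ppp3ca and Ppp3cb, the calcineurin regulatory subunit Ppp3r1, the PP1 catalytic subunits Ppp1ca, Ppp1cb and Ppp1cc, the PP1-targeting protein spinophilin (Ppp1r9b), and the kinases Prkca and Prkcb. All 9 passed the filter on low counts, which left 12255 genes for testing.

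RNA was sequenced from synaptoneurosomes, pinched-off synaptic endings that are collected from brain tissue by filtering. They were prepared from the hippocampus and adjacent cortex of male FVB mice of 6 to 8 weeks, with tissue of several animals pooled. In 1 group of 3 libraries the synaptoneurosomes received a 30 s pulse of 50 µM NMDA and 10 µM glutamate, then the NMDA receptor antagonist APV at 120 µM for 20 min, and the RNA came from the polyribosomes of a sucrose gradient. The other group of 3 libraries held total RNA of unstimulated synaptoneurosomes, which per the study's methods stayed on ice with cycloheximide. Stimulation, incubation and fraction thus changed together and cannot be told apart, and "higher" below means a larger share of the polyribosomal RNA of stimulated synaptoneurosomes than of the total RNA of unstimulated ones. In such bulk RNA, fewer synaptoneurosomes or cells of a type and less RNA in each cannot be told apart either.

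Calcineurin is a calcium- and calmodulin-dependent phosphatase made of a catalytic A subunit and a calcium-binding B subunit. It is activated by calcium that enters through NMDA receptors, and it relieves the inhibition of PP1, so that the pair forms a phosphatase cascade best known from long-term depression. PP1 gains its substrates through regulatory subunits, among which spinophilin holds it in dendritic spines, close to glutamate receptors. The conventional PKC isoforms respond to calcium and diacylglycerol and act on receptors, on the cytoskeleton and on vesicle release.

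Libraries were unequal in depth, with 1044955 to 3738022 counts for total RNA and 5294482 to 7361580 for polyribosomal RNA. The libraries with the same number, called a preparation here, deviated together from their group means (correlations across genes of 0.37, 0.26 and 0.38), so a fit with the preparation as a block is given beside the unpaired one. The p-values of the blocked fit draw largely on a dispersion shared over genes and say little about how alike the preparations of a single gene were. Preparation 3 stood apart from the other two in both fractions, and total RNA of preparation 3 was the shallowest library. Markers of other cells also moved with the comparison. All 10 astrocyte markers had a positive log2 fold change, and their summed level was 34416 to 40331 CPM (counts per 1000000 counts of the TMM-scaled library) in total RNA against 44749 to 49150 on polyribosomes. Sums of the 8 oligodendrocyte markers were 7921 to 11082 and 10988 to 14841 CPM, and those of the 9 microglia markers 604 to 844 and 941 to 1086 CPM. The 9 neuronal markers summed to 11276 to 13088 and 12227 to 14797 CPM, and the 7 endothelial markers to 330 to 369 and 310 to 565 CPM. All of these markers had counts in every library, and their part in the results below was not tested.

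The catalytic isoforms of each phosphatase are close relatives, which bears on how far reads can be told apart. Stretches of coding sequence centred on the longest identical run of Ppp1ca and Ppp1cc, and of Ppp3ca and Ppp3cb, are therefore shown first. The sequences are from the Gencode vM21 transcripts (GRCm38) with the longest coding region, 60 bases each from 5′ to 3′, and capitals mark bases that differ from the first sequence of the set. The PP1 stretch lies at coding bases 833 to 892 of Ppp1ca, counted from the start codon, in exons 6 and 7 (chr19:4194857-4194991, plus strand).
Ppp1ca: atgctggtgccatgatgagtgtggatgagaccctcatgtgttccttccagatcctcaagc
Ppp1cc: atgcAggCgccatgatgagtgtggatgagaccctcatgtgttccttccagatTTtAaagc
Ppp1cb: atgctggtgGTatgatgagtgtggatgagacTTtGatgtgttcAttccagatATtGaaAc
In this stretch Ppp1cc differed from Ppp1ca at 5 bases and Ppp1cb at 10 bases. The calcineurin stretch lies in exon 11 of Ppp3ca (coding bases 1169 to 1228, chr3:136921845-136921904, plus strand), and Ppp3cb differed there at 7 bases.
Ppp3ca: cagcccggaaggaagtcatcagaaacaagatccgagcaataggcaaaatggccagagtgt
Ppp3cb: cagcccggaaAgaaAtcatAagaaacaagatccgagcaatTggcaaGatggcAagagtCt
The longest run without a difference was 44 bases, between Ppp1ca and Ppp1cc, and that between Ppp3ca and Ppp3cb was 20 bases. These runs are shorter than the sequenced reads. Ppp1ca is the only gene of the 9 whose annotated exons overlap those of another gene, with 225 bases shared with Rad9a on the opposite strand and 191 with an antisense transcript. The libraries keep the strand, but whether counting used it is not given in the sources used here, so the counts of Ppp1ca carry this uncertainty.

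Per kilobase of annotated exon, the 9 genes covered a wide range of abundance. In total RNA, spinophilin had the highest mean with 263 ± 139 CPM per kilobase (SD, n = 3), and Prkcb was next with 161 ± 9.57. Ppp3ca followed with 76.1 ± 12.4, Ppp3r1 with 46.9 ± 19.2 and Ppp1ca with 42.6 ± 3.00 CPM per kilobase. Prkca, Ppp1cb and Ppp3cb lay close together at 24.8 ± 1.48, 22.4 ± 7.14 and 21.6 ± 6.61, and Ppp1cc was lowest at 11.1 ± 2.52. Some neighbours in this order had overlapping ranges of mean ± SD. They were spinophilin and Prkcb, Ppp3ca and Ppp3r1, Ppp3r1 and Ppp1ca, and the group of Prkca, Ppp1cb and Ppp3cb. Among all tested genes spinophilin stood at percentile 99.3 and Prkcb at 98.5 of this level, while Ppp1cc stood at 64.6. On polyribosomes, spinophilin (347 ± 74.0), Prkcb (144 ± 10.0) and Ppp3ca (61.5 ± 4.42) were again the 3 most abundant, and Ppp3cb moved from percentile 81.0 to 65.7.

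Lower levels on polyribosomes were more frequent than higher ones among the 9 genes. The log2 fold change was negative for 7 of them, with 49.9% of all tested genes. The 3 calcineurin genes, Ppp1cc and both kinases were lower in all 3 preparations (6 of 9, with 30.6% of all tested genes), and spinophilin was higher in all 3 (1 of 9, with 30.2%). In the unpaired fit 0 of the 9 genes passed an adjusted p of 0.01, where 3.07% of all tested genes did, 0.71% as higher and 2.36% as lower (quasi-likelihood test of edgeR, p-values adjusted by Benjamini and Hochberg). DESeq2 also called 0 of them, where it called 4.14% of 16736 genes. That share is of all genes with a fold change, whether or not DESeq2 gave them an adjusted p. Without the filter on low counts edgeR called 1, Ppp3cb, where 6.23% of all genes were called. At an unadjusted p under 0.05 in edgeR, 3 genes were lower (Ppp3cb, Ppp3r1 and Prkca) and 0 higher, with 17.1% and 15.4% of all tested genes. With the preparation as a block, 4 of the 9 passed, with 25% of all tested genes. Ppp3cb, Ppp3r1 and Prkca were lower, where 13.2% of all genes were, and spinophilin was higher, where 11.8% were. The median log2 fold change of the 9 genes was -0.27 without the block and -0.24 with it, against 0.00 for all genes tested in both fits.

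**Figure D1:**
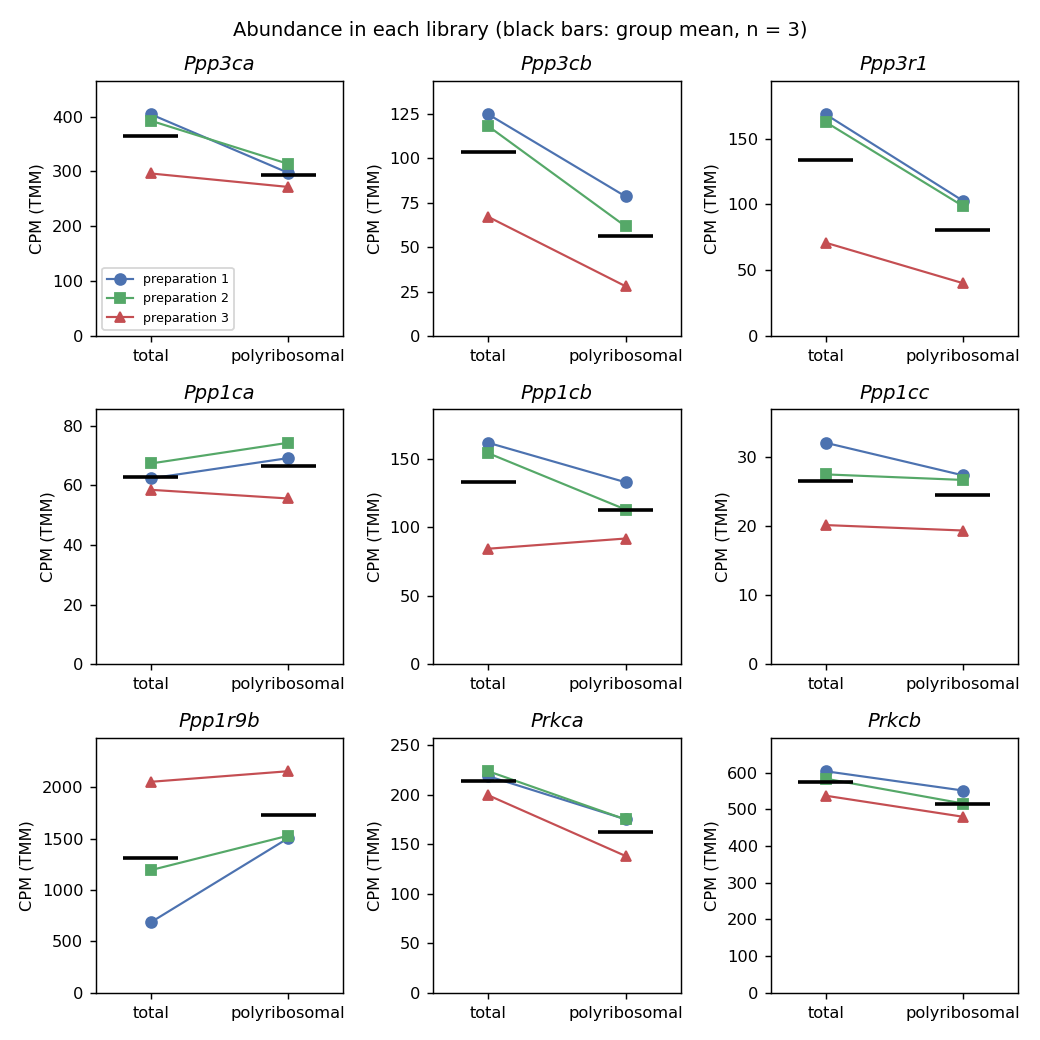
Abundance of each of the 9 genes in each library, in CPM (TMM-scaled, linear axis from 0), with total RNA on the left and polyribosomal RNA on the right of each panel. Lines join the 2 libraries of a preparation and black bars are group means of 3 libraries; Ppp3cb, Ppp3r1 and Prkca go down in every preparation, and preparation 3 is lowest for the calcineurin genes and highest for Ppp1r9b in both fractions.

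The differences farthest from 0 were those of 2 calcineurin genes, Ppp3cb and Ppp3r1. Ppp3cb (chromosome 14, 20499364 to 20546573 of GRCm38), the β isoform of the catalytic subunit, had 125, 118 and 67.1 CPM in total RNA of preparations 1 to 3 and 78.6, 61.8 and 28.0 CPM on polyribosomes. Each preparation was lower on polyribosomes, but the total RNA of preparation 3 lay below polyribosome replicate 1, so the groups overlapped. Its polyribosomal level was 0.534 times that of total RNA, or -0.90 ± 0.30 on the log2 scale (fold change ± standard error), and this did not pass (adjusted p = 0.0525, edgeR). With the block it was -0.89 ± 0.13 and passed (adjusted p = 1.2e-08, edgeR). The decrease within preparations was -0.67, -0.93 and -1.25 on the log2 scale.

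Ppp3r1 (chromosome 11, 17159263 to 17200375), the calcium-binding B subunit that pairs with either catalytic isoform, was likewise lower on polyribosomes in each preparation. It had 169, 163 and 71.0 CPM in total RNA and 103, 98.8 and 40.1 CPM on polyribosomes. Here too the groups overlapped through the total RNA of preparation 3, while the differences within preparations were close to each other (-0.71, -0.72 and -0.81). The difference was -0.76 ± 0.32 (adjusted p = 0.116, edgeR) without the block and -0.74 ± 0.13 (adjusted p = 1.16e-06) with it. The call of Ppp3cb and of Ppp3r1 with the block held with any 1 preparation left out, with Ppp3cb from -1.07 to -0.80 and Ppp3r1 from -0.77 to -0.73, where 9.7% to 24.5% of all genes were called (12.6% without preparation 1, 9.7% without 2 and 24.5% without 3). Without the block both were called when preparation 3 was left out (-0.80 and -0.73, with 8.86% of all genes).

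Ppp3ca (chromosome 3, 136670124 to 136937727), the α isoform and the most abundant of the calcineurin genes, changed less. Its levels were 404, 393 and 296 CPM in total RNA and 297, 314 and 272 CPM on polyribosomes. All 3 preparations were lower on polyribosomes, by -0.44, -0.32 and -0.12 on the log2 scale, and the polyribosomal libraries overlapped with total RNA of preparation 3. The log2 fold change with the block was -0.30 (95% interval -0.55 to -0.06) and did not pass the threshold (adjusted p = 0.0443, edgeR). Without preparation 3 it was -0.39 and passed (adjusted p = 3.60e-04 with the block).

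The α isoform thus took a larger part of the calcineurin catalytic counts on polyribosomes. Ppp3ca made up 76.4%, 76.9% and 81.5% of the Ppp3ca and Ppp3cb counts in total RNA and 79.1%, 83.6% and 90.7% on polyribosomes. The share was higher in 3 of 3 preparations, by 2.71, 6.70 and 9.13 percentage points. Group means were 78.3% ± 2.84 and 84.4% ± 5.83 (SD, n = 3), and the groups overlapped (two-sided exact permutation p = 0.2, where 3 against 3 libraries cannot go below 0.1). Without polyribosome replicate 3, and with total RNA of preparation 3 kept, the difference of the means was 3.07 instead of 6.18 percentage points. Counts of the B subunit were also set against those of the catalytic subunits. There were 31.9, 31.9 and 19.5 Ppp3r1 counts per 100 counts of Ppp3ca and Ppp3cb in total RNA and 27.3, 26.3 and 13.4 on polyribosomes. This ratio differed by -4.53, -5.56 and -6.13 in the 3 preparations, while the means of 27.8 ± 7.13 and 22.3 ± 7.77 differed by less than the spread between libraries (exact permutation p = 0.5). Preparation 3 had the lowest ratio in both fractions, so leaving out only one of its libraries shifts a group mean by itself. The difference of the means, -5.40, was -0.93 without polyribosome replicate 3 alone, with total RNA of preparation 3 kept. It was -3.35 without total RNA replicate 1 or 2 and -9.52 without total RNA replicate 3. Both measures are ratios within a library and do not depend on the scaling between libraries.

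**Figure D2:**
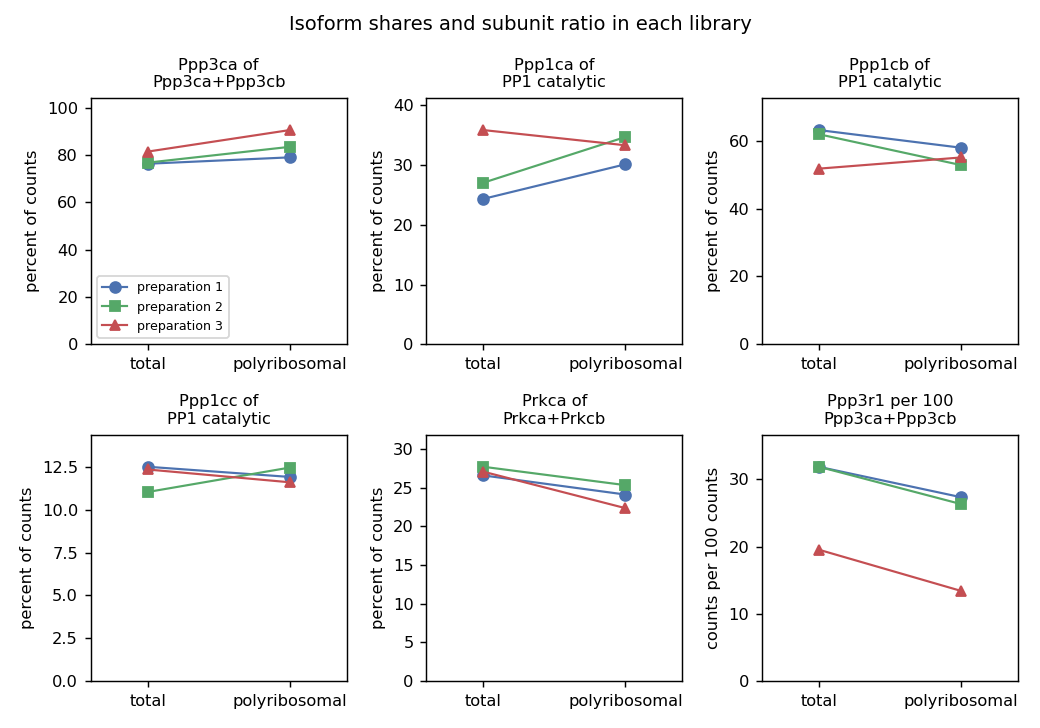
Isoform shares (percent of counts) and the Ppp3r1 ratio (counts per 100 counts of Ppp3ca and Ppp3cb) in each library, with lines joining the 2 libraries of a preparation and every axis starting at 0. The Ppp3ca share goes up and the Prkca share and the Ppp3r1 ratio go down in all 3 preparations, whereas the PP1 shares have no common direction.

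The PP1 catalytic isoforms, which dephosphorylate serine and threonine and differ mainly at their ends and in the partners they bind, did not pass the threshold in either fit. Ppp1ca (chromosome 19, 4192158 to 4195419) had 62.3, 67.3 and 58.5 CPM in total RNA and 69.1, 74.3 and 55.6 CPM on polyribosomes. Its groups overlapped and preparation 3 went the other way, with a log2 fold change with the block of 0.10 (95% interval -0.16 to 0.35, adjusted p = 0.605, edgeR). Ppp1cb (chromosome 5, 32458843 to 32517433), which had the most counts of the 3 but a lower level per kilobase than Ppp1ca, had 162, 154 and 84.4 CPM in total RNA and 133, 113 and 91.8 CPM on polyribosomes. It was lower in preparations 1 and 2 (by -0.28 and -0.45 on the log2 scale) and 0.12 higher in preparation 3, and the fitted difference with the block was -0.24 (95% interval -0.49 to 0.01, adjusted p = 0.128). Without preparation 3 it was -0.37 and passed (adjusted p = 0.00188 with the block). Ppp1cc (chromosome 5, 122158278 to 122175273), the isoform enriched in spines with spinophilin, had 32.0, 27.5 and 20.1 CPM in total RNA and 27.3, 26.7 and 19.4 CPM on polyribosomes. The interval of its difference with the block was -0.44 to 0.18 (adjusted p = 0.557), and it rested on only 21 counts in the total RNA of preparation 3.

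Shares among the PP1 catalytic counts did not separate the groups. Ppp1ca held 24.3%, 27.1% and 35.9% in total RNA and 30.1%, 34.7% and 33.3% on polyribosomes, and Ppp1cb held 63.1%, 61.9% and 51.8% and 57.9%, 52.8% and 55.1%. In preparations 1 and 2 the share of Ppp1ca was higher on polyribosomes by 5.80 and 7.67 percentage points, and in preparation 3 the difference was -2.55 (exact permutation p = 0.4 for both shares). The denominator in total RNA of preparation 3 was 170 counts, and its Ppp1ca share of 35.9% has an exact binomial 95% interval of 28.7% to 43.6%, which covers counting error only. The share of Ppp1cc was 12.5%, 11.0% and 12.4% in total RNA and 11.9%, 12.5% and 11.6% on polyribosomes, with a difference of the means of 0.03 percentage points.

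Spinophilin (Ppp1r9b, chromosome 11, 94991035 to 95006899), which carries PP1 to F-actin in dendritic spines, had the highest level per kilobase of the set and differed widely between preparations in total RNA. It had 687, 1194 and 2052 CPM in total RNA and 1505, 1529 and 2155 CPM on polyribosomes. Every preparation was higher on polyribosomes, yet by unequal amounts (1.13, 0.36 and 0.07 on the log2 scale), and the total RNA of preparation 3 exceeded both polyribosomal libraries of preparations 1 and 2. The unpaired difference was 0.40 ± 0.30 (adjusted p = 0.373, edgeR), and with the block it was 0.52 ± 0.13 (adjusted p = 0.00109). This call rested on preparation 1. Without it the difference with the block was 0.20 (adjusted p = 0.471), without preparation 2 it was 0.61 (adjusted p = 0.0583), and without preparation 3 it was 0.73 (adjusted p = 1.18e-13). The fit without preparation 3 had a standard error of 0.09, although preparations 1 and 2 differed (1.13 and 0.36). Its p-value therefore does not measure how well these preparations repeat each other. Relative to the PP1 it targets, spinophilin went from 268, 480 and 1259 counts per 100 PP1 catalytic counts in total RNA to 656, 715 and 1292 on polyribosomes, higher in 3 of 3 preparations (exact permutation p = 0.5 between the groups). Within preparations 1 to 3 this ratio was higher by 388, 235 and 33.4. The difference of the means, 219, was 18.5, 124 and 514 without total RNA replicate 1, 2 and 3. It was 335 without polyribosome replicate 1 and 16.6 without polyribosome replicate 3. Each of these values leaves out a single library and keeps its partner. Preparation 3 had the highest ratio in both fractions, so leaving out only one of its libraries shifts a group mean by itself.

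Among the kinases, Prkca (chromosome 11, 107933387 to 108343928), encoding PKCα, had 219, 224 and 199 CPM in total RNA and 175, 175 and 138 CPM on polyribosomes. It was the only gene of the 9 whose groups did not overlap, and among all tested genes 18.9% were non-overlapping in this direction and 17.4% in the other. The difference was -0.40 ± 0.17 (adjusted p = 0.114, edgeR) without and -0.39 ± 0.12 (adjusted p = 0.00775) with the block, and -0.32, -0.35 and -0.53 within the preparations. The blocked call was lost without preparation 1 (adjusted p = 0.0383) and without preparation 2 (adjusted p = 0.142), at log2 fold changes of -0.45 and -0.41. Prkcb (chromosome 7, 122288751 to 122634402), encoding PKCβ and the more abundant kinase, had 604, 583 and 537 CPM in total RNA and 551, 516 and 480 CPM on polyribosomes. It was lower in each preparation by a similar small amount (-0.13, -0.18 and -0.16), and its difference with the block did not pass the threshold (-0.16, 95% interval -0.40 to 0.09, adjusted p = 0.336).

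Set against each other within a library, the kinases separated the groups. Prkca took 26.6%, 27.7% and 27.1% of the Prkca and Prkcb counts in total RNA and 24.1%, 25.3% and 22.4% on polyribosomes. All polyribosomal shares lay below all total RNA shares, with means of 23.9% ± 1.50 and 27.1% ± 0.56 (SD, n = 3), a difference of -3.20 percentage points. The two-sided exact permutation p was 0.1, the smallest that 3 against 3 libraries can give. These shares are not corrected for GC content, and with the GC and length offset described below the order turned, with log2 fold changes of -0.08 for Prkca and -0.17 for Prkcb.

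**Figure D3:**
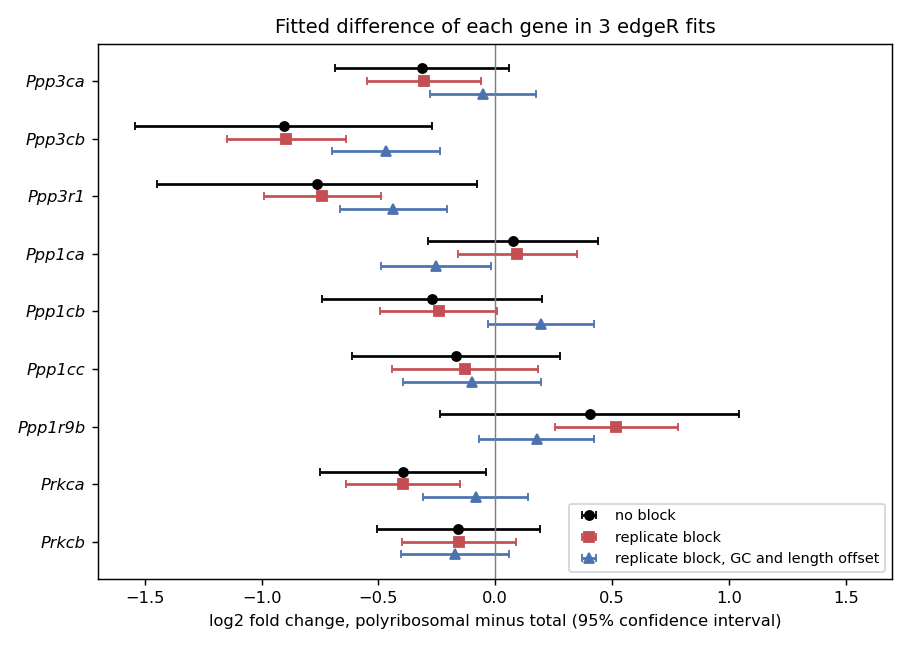
Log2 fold change (polyribosomal minus total) of each gene with its 95% confidence interval in 3 edgeR fits, without the block, with the preparation as a block, and with the block and an offset for transcript GC content and length. Blocked intervals are narrower, and with the offset only those of Ppp3cb, Ppp3r1 and Ppp1ca leave out 0.

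The order of the 9 genes followed the GC content of their transcripts. Ppp3cb (39.8% GC), Ppp1cb (40.8%) and Ppp3r1 (41.4%) were among the transcripts poorest in G and C, at percentiles 4.1, 6.5 and 8.2 of the tested genes, while spinophilin (62.3%) stood at percentile 98.3. Across the 9 genes the unpaired log2 fold change and GC content had a Pearson correlation of 0.91 (Spearman 0.88, n = 9 genes measured in the same libraries). The table as a whole had the same trend, with a correlation of 0.54 over 12215 genes and median log2 fold changes, with the block, of -0.35 in the GC quintile lowest in GC and 0.34 in the highest. Preparation 3 deviated along the same axis. In its total RNA, relative to the mean of preparations 1 and 2, Ppp3r1 stood at 0.428 times, Ppp1cb at 0.535 times, Ppp3cb at 0.552 times and spinophilin at 2.18 times, and the correlation of these log2 ratios with GC content was 0.91 over the 9 genes.

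With an offset for the trend of each library over GC content and length added to the block, the lower abundance of calcineurin remained for 2 of its 3 genes, at a smaller size. Ppp3cb was at -0.47 ± 0.12 (adjusted p = 8.46e-04, edgeR) and Ppp3r1 at -0.44 ± 0.12 (adjusted p = 0.00194), where 7.2% of all tested genes were called lower and 9.11% higher. Spinophilin (0.18, adjusted p = 0.313), Prkca (-0.08, adjusted p = 0.631) and Ppp3ca (-0.05, adjusted p = 0.784) did not pass. The signs of Ppp1ca (-0.26, adjusted p = 0.102) and Ppp1cb (0.20, adjusted p = 0.209) turned. Prkcb stayed at -0.17 and Ppp1cc at -0.10. The calls of Ppp3cb and Ppp3r1 depended on the block. With the offset but no block, Ppp3cb was at -0.50 ± 0.22 (adjusted p = 0.171, edgeR) and Ppp3r1 at -0.47 ± 0.25 (adjusted p = 0.249). That fit called 0 of the 9 genes, where 1.01% of all tested genes were called.

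**Figure D4:**
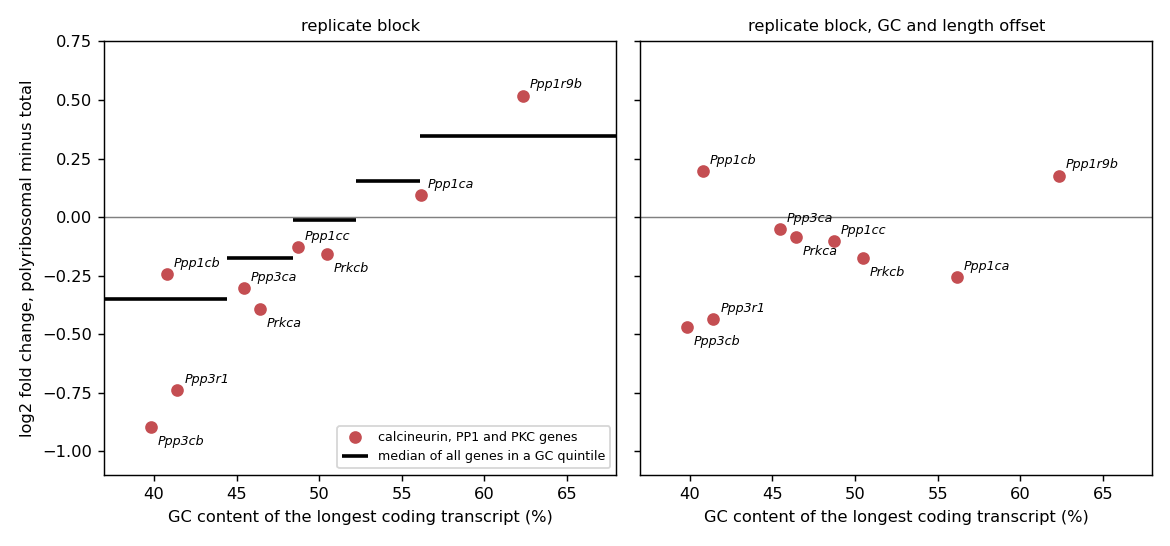
Log2 fold change of the 9 genes against the GC content (%) of their longest coding transcript, with the preparation as a block on the left and with an added offset for GC content and length on the right. Black bars on the left are the medians of all tested genes in each GC quintile, which go from -0.35 to 0.34; on the right Ppp3cb and Ppp3r1 remain at -0.47 and -0.44.

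Other genes of these pathways were examined in 5 lists. Their counts are to be read against all tested genes, of which 0.71% were higher and 2.36% lower without the block, 15.4% and 17.1% at an unadjusted p under 0.05, and 11.8% and 13.2% with the block. Of 18 partners and targets of calcineurin, 16 were tested, and 1 was lower and 0 higher without the block (2 and 0 with it, or 2 of 16 against 13.2% of all genes). The median log2 fold change was -0.10, against 0.00 for all genes. The lower gene was Nfatc3, a transcription factor that calcineurin dephosphorylates, with 24.8 ± 2.97 CPM in total RNA and 10.7 ± 0.48 on polyribosomes (-1.20 ± 0.19, adjusted p = 0.00249, edgeR). Nfatc3 stayed lower with the block and the GC and length offset (-0.93). In fits without the block, no gene of this list was called without total RNA replicate 1 or 2 or polyribosome replicate 2. Those fits called 22 to 66 of all genes. The anchoring protein gene Akap5, which holds calcineurin and PKC at the postsynaptic membrane, was called only with the block (-0.42, adjusted p = 0.0068, edgeR) and was at -0.09 with the offset. The remaining catalytic isoform Ppp3cc had 11.4, 9.38 and 15.3 CPM in total RNA and 7.44, 7.83 and 4.94 on polyribosomes, with non-overlapping groups but an adjusted p of 0.07 (edgeR), 0.015 with the block. With the block and the offset Ppp3cc was at -0.73 and passed (adjusted p = 0.00935, edgeR). That fit also called Cabin1 lower (-0.41, adjusted p = 0.00318) and Chp1 higher (0.43, adjusted p = 0.00403). Neither was called with the block alone.

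Of 34 regulatory subunits and partners of PP1, 33 were tested and 0 passed without the block. At an unadjusted p under 0.05 in edgeR 3 were lower and 0 higher, DESeq2 called 1, and with the block 3 were lower and 1 higher. These counts of 33 lie below the shares of all genes, 17.1% and 15.4% at an unadjusted p under 0.05, 4.14% in DESeq2, and 13.2% and 11.8% with the block. The lower genes were Akap9 (-0.98), a large scaffold of the Golgi and centrosome, Ppp1r9a (-0.61) and Ppp1r21 (-0.55), and the higher one was Ppp1r1b (0.53, adjusted p = 0.0076), which encodes the PP1 inhibitor DARPP-32. Ppp1r9a encodes neurabin, the close relative of spinophilin, and had 258, 310 and 568 CPM in total RNA and 234, 212 and 251 CPM on polyribosomes. Total RNA of preparation 3 was thus the highest total RNA library for both relatives, while neurabin was lower on polyribosomes in each preparation and spinophilin higher. With the block and the GC and length offset Akap9 (-0.58, adjusted p = 2.7e-05, edgeR) and Ppp1r21 (-0.50, adjusted p = 0.0029) were still called. Ppp1r9a (-0.25, adjusted p = 0.087) and Ppp1r1b (0.07) were not. Phactr3 was called higher in that fit (0.41, adjusted p = 0.0033), but not with the block alone.

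Of 13 other kinases of the PKC and related PKN and PKD families, 12 were tested and 0 passed without the block (1 lower and 0 higher at an unadjusted p under 0.05 in edgeR, 0 in DESeq2). With the block 1 was lower, Pkn2, a kinase of the PKN family (-0.73, adjusted p = 8.2e-05), which was at -0.31 with the offset and not called. In the list of 21 genes that act before PKC or are its substrates, 0 were higher and 1 lower without the block, and 4 were higher and 4 lower with it, where 11.8% and 13.2% of all genes were. The lower gene was Dgki, a diacylglycerol kinase that removes the lipid activator of PKC, with 86.0 ± 13.5 CPM in total RNA and 47.6 ± 3.19 on polyribosomes (-0.83 ± 0.17, adjusted p = 0.00808, edgeR). It was the same size with the block and the offset (-0.81). In fits without the block, no gene of this list was called without total RNA replicate 1, 2 or 3. The same held without polyribosome replicate 1 or 2. Those fits called 22 to 258 of all genes. The substrates neurogranin (Nrgn, 0.92) and Marcksl1 (0.68) were among those higher with the block, along with the phospholipase gene Plcb3 (0.66) and the adducin gene Add3 (0.45), and Dgkh, Plcb1 and Plcb4 were lower. With the offset Nrgn (0.47), Plcb3 (0.48) and Add3 (0.69) were still called, whereas Marcksl1 (0.26), Plcb1 (-0.05) and Plcb4 (-0.22) were not, nor was Dgkh, whose sign turned (0.05). Dgkg (-0.43, adjusted p = 0.00743, edgeR) and Gap43 (-0.41, adjusted p = 0.00904) were called lower with the block and the offset, but not with the block alone. Of 18 other serine and threonine phosphatase catalytic subunits, 15 were tested, 0 passed without the block (2 higher and 3 lower at an unadjusted p under 0.05 in edgeR, 0 in DESeq2), and Ppm1e (-0.60), Ppp6c (-0.51) and Ppm1k (-0.40) were lower with it, 3 of 15 where 13.2% of all genes were. None of these 3 passed with the offset (-0.30 for Ppm1e and -0.02 for Ppp6c), and the sign of Ppm1k turned (0.07). Ppp2ca and Ppp2cb, which encode the catalytic subunits of protein phosphatase 2A, had log2 fold changes of -0.10 and -0.07.

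**Figure D5:**
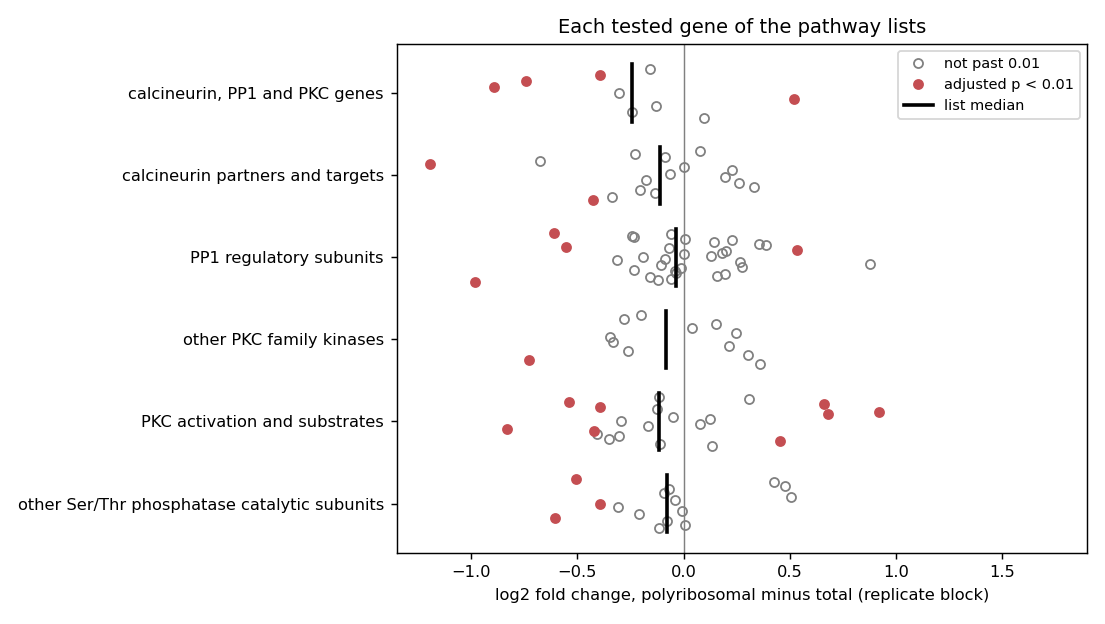
Log2 fold change with the preparation as a block (polyribosomal minus total) of every tested gene of the 9 and of the 5 pathway lists, with filled points for genes past an adjusted p of 0.01 and black bars for list medians. The median of the 9 genes is -0.24 and those of the 5 lists lie between -0.11 and -0.04.

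The genes whose levels over the 6 libraries were most like those of the most counted gene of each enzyme were found among 3733 genes with a mean of at least 50 CPM. For Ppp3ca these were Dnajc6, Rab3gap1 and Exoc3 (Pearson correlations of log2 CPM of 0.99, 0.99 and 0.99), for Ppp1cb Rad21, Hspa4l and Vps35 (0.99 each), and for Prkcb Rfx3, Pgm2l1 and Map1b (0.99 each). These are descriptions over 6 libraries that share preparations. Among the 9 genes themselves, levels of Ppp3cb and Ppp3r1 had a correlation of 0.97, those of Ppp3cb and Prkcb of 0.98, and spinophilin was negatively correlated with each of the other 8, from -0.90 with Ppp1cc to -0.29 with Ppp1ca.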

How the data were processed

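The authors prepared strand-specific, rRNA-depleted libraries, mapped reads with STAR to GRCm38 (STAR 2.5.2b per the submitters' processing notes) and counted them per gene of the basic Gencode vM6 set. The deposited values used here are these raw counts, as whole numbers. Columns of the same table holding the authors' DESeq2 comparison (mean, fold change, error, p-values) were not used.

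Counts were analysed with edgeR 4.0.16 in R 4.3.3, with TMM normalization, filterByExpr (12255 genes) and the quasi-likelihood test, with the group alone in the main model, at a Benjamini-Hochberg adjusted p of 0.01 over all genes. CPM are TMM-scaled, with a prior count of 2 on the log2 scale. Standard errors are the log2 fold change divided by the square root of F. Length and GC content came from Gencode vM21, available for 99.7% of tested genes. The offset removed each library's trend with both (natural splines, 5 degrees of freedom each). Shares were compared with exact permutation tests.

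The paper's methods divide one preparation into aliquots, and the deposited columns of same-numbered libraries share a header prefix. The deviations of same-numbered libraries from their group means also correlated in each of 3 pairs (0.37, 0.26 and 0.38). Numbers were therefore taken to pair samples. Nothing in the sources says that the 3 preparations came from separate pools of animals, so p-values measure at most the spread between these libraries. With the block they draw largely on a dispersion shared over genes. Blocked standard errors of spinophilin (0.13) and Prkcb (0.12) were alike, while the SDs of their differences within preparations were 0.55 and 0.02. Blocked p-values thus say little about how alike the 3 preparations of a gene were. Replicates differed by more than sampling noise. Genes, lists and tests were chosen with earlier results of these data known. Named genes were the 9, up to 4 of each list with the largest called change, and the most correlated genes. Genes named outside that rule (Akap5, Cabin1, Chp1, Ppp3cc, Phactr3, Nrgn, Marcksl1, Plcb3, Add3, Dgkg, Dgkh, Gap43, Plcb1, Plcb4, Ppp2ca, Ppp2cb) were named after their values were seen. Alternatives were other normalizations, no filter, DESeq2 1.42.0, the block, the offset, and leaving out libraries, and leaving out preparations was added after seeing the data. The scripts were tested on simulated data. Some items of the lists are not reported here.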

Additional observations from a re-analysis of the deposited data

How the results depend on the processing

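With the preparation as a replicate block, 4 of the 9 genes passed instead of 0, and 3063 of all genes instead of 376. For the calcineurin partners, PP1 regulatory subunits, other PKC kinases, PKC activators and substrates, and other phosphatases the block gave 2, 4, 1, 8 and 3 calls, against 1, 0, 0, 1 and 0 without it, and it changed no direction of the 9 genes. The block with the GC and length offset gave 2 of the 9 genes, 1999 of all genes, 4, 3 and 6 in the first 2 lists and the PKC activators and substrates, and 0 in the other PKC kinases and in the other phosphatases. The offset alone gave 0 of the 9 genes, 124 of all genes and 0 calcineurin partners. Without the expression filter 1 of the 9 (Ppp3cb), 1042 of all genes, 1 PP1 regulatory subunit, 1 PKC kinase and 2 PKC activators or substrates passed, and DESeq2 called 693 of all genes, 1 and 2 in the same lists of PP1 subunits and PKC activators. The sign of Ppp1ca turned with total counts only (-0.0278, where the median of all genes moved to -0.11), with the offset (-0.29) and with the block and offset (-0.26), and that of Ppp1cb with the offset (0.19) and the block and offset (0.20). Dividing by exon length turned the difference in the Ppp1cc share from 0.03 to -0.77 percentage points. The cause was not tested.

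Leaving out each library in turn gave 0 of the 9 genes, 22 to 258 of all genes (22 without total RNA replicate 2), 0 to 1 in each of the first 2 lists and the PKC activators and substrates, and log2 fold changes of -1.23 to -0.60 for Ppp3cb, -1.03 to -0.45 for Ppp3r1, -0.45 to -0.29 for Prkca, 0.08 to 0.88 for Ppp1r9b and -0.0099 to 0.18 for Ppp1ca, whose sign turned without polyribosome replicate 2. The Ppp1cc share difference ran from -0.44 to 0.30 percentage points and turned without total RNA replicate 2 or polyribosome replicate 2. That of the Ppp3ca share ran from 3.07 to 8.85, that of the Ppp3r1 ratio from -9.52 to -0.93 and that of the Ppp1r9b ratio from 16.6 to 514. All of these keep the other library of the preparation that lost one. Without preparation 3, 2 of the 9 passed without the block (8.86% of all genes) and 6 with it (24.5%), and 2 passed with the block without preparation 1 (12.6%) or 2 (9.7%). Total RNA replicate 3, with 1044955 counts, limits the weakly expressed genes.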
